A study of Mus musculus with 2 samples.

Results

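The complement genes described here were C1qa, C1qb, C1qc, C3, C4b, C7, Serping1, C3ar1 and C5ar1, taken from the tables by symbol. They are 9 of 24984 gene symbols in the single cell RNA-seq tables, and all 9 had UMIs (unique molecular identifiers, each standing for 1 captured RNA molecule) in both libraries. The tables hold live mononuclear cells of the hind limbs of mdx animals, in which dystrophin is missing as it is in Duchenne muscular dystrophy. Mice of the Ctrl library were Pax7 CreERT2/R26YFP; Yy1 +/+; mdx and those of the dKO library Pax7 CreERT2/R26YFP; Yy1 f/f; mdx. Cre driven by Pax7 acts in muscle stem cells (MuSCs) and their progeny, where it deletes the floxed Yy1, which encodes a transcription factor with zinc fingers. By the study's methods tamoxifen was given at 1.5 months of age and muscle was taken 1 month later. The GEO label of the Ctrl sample reads as untreated, while the methods give tamoxifen to both genotypes. Each library pooled 3 mice, so each group had 1 library, replicates are lacking for every difference given here and no test across libraries could be made.

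Complement is a cascade of plasma and tissue proteins that tags targets for uptake and can punch holes in membranes. C1q, built from the C1qa, C1qb and C1qc chains, recognises antibodies and damaged cells and starts the classical pathway, in which C1r and C1s cleave C4 and C2 to make the enzyme that cleaves C3. The C3a and C5a fragments act on the receptors encoded by C3ar1 and C5ar1, C7 joins the membrane attack complex, and C1 inhibitor, encoded by Serping1, blocks C1r and C1s. Macrophages are a known local source of C1q and stromal cells of C3 and C4.

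After filtering, 4010 Ctrl and 3079 dKO cells were kept, with medians of 7880 and 7806 UMIs. Cells were clustered without any complement gene and named from marker genes, which left fibro/adipogenic progenitor-like (FAP-like) and monocyte/macrophage-like (MO/MP-like) cells as the main classes. FAP-like cells were 28.0% of Ctrl cells (95% exact binomial interval 26.6% to 29.4%) and 38.3% of dKO cells (36.57% to 40.04%). For MO/MP-like cells these shares were 29.6% and 30.9%. Another cluster led by Cd163 and Ccl8 (241 Ctrl and 177 dKO cells) had 12 of 12 MO/MP markers detected but Lyve1, a gene on the lymphatic endothelial list, and no gene of the MO/MP list among its 10 leading genes, so it was kept apart as the Cd163-led cluster. Its median UMI count was 2580 in Ctrl and 2953 in dKO, against 8859 and 7344 in MO/MP-like cells. Yy1 in MuSC-like cells was at 159.7 CPM (UMIs per 1000000 UMIs of the class) in Ctrl (369 UMIs) and at 4.85 CPM in dKO (3 UMIs), a ratio of 0.0304 (0.00623 to 0.0894), while the Yy1 ratio was 1.07 in FAP-like and 1.13 in MO/MP-like cells. The MuSC-like cluster had Mymx, Chrng and Myog, genes of differentiating muscle cells, among its leading genes, and so does not stand for quiescent MuSCs alone. Its 10 MuSC markers summed to 3267 CPM in Ctrl and 3833 CPM in dKO, and 10 myocyte markers to 2919 and 5478 CPM. In the Cd163-led cluster the 12 MO/MP markers summed to 26813.5 CPM in Ctrl and 24543 CPM in dKO. The same sums were 24381 and 24157 CPM in MO/MP-like cells. The 6 lymphatic endothelial markers summed to 262 and 545 CPM in the Cd163-led cluster, so by its markers it was a macrophage cluster. All levels below are such CPM, and intervals are exact 95% intervals that cover counting error only. Pooled mice and library preparation add error that they do not hold.

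The 9 genes fell into 2 places. The C1q chains, C3ar1 and C5ar1 had most of their UMIs in MO/MP-like cells and the Cd163-led cluster, and C3, C4b, C7 and Serping1 in FAP-like cells. In Ctrl, MO/MP-like cells and the Cd163-led cluster together held 93.3% of C1qa, 93.1% of C1qb, 92.8% of C1qc, 92.5% of C3ar1 and 89.1% of C5ar1 UMIs. FAP-like cells held 91.5% of C3, 86.8% of C4b, 97.2% of C7 and 90.0% of Serping1 UMIs. In dKO the same shares ran from 94.2% to 97.2% for the first 5 genes and from 90.5% to 98.7% for the other 4. By level rather than by share the order differed for some members. C4b in the Cd163-led cluster was above FAP-like cells in Ctrl and could not be told apart from them in dKO, and C5ar1 was highest in neutrophil-like cells.

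**Figure D1:**
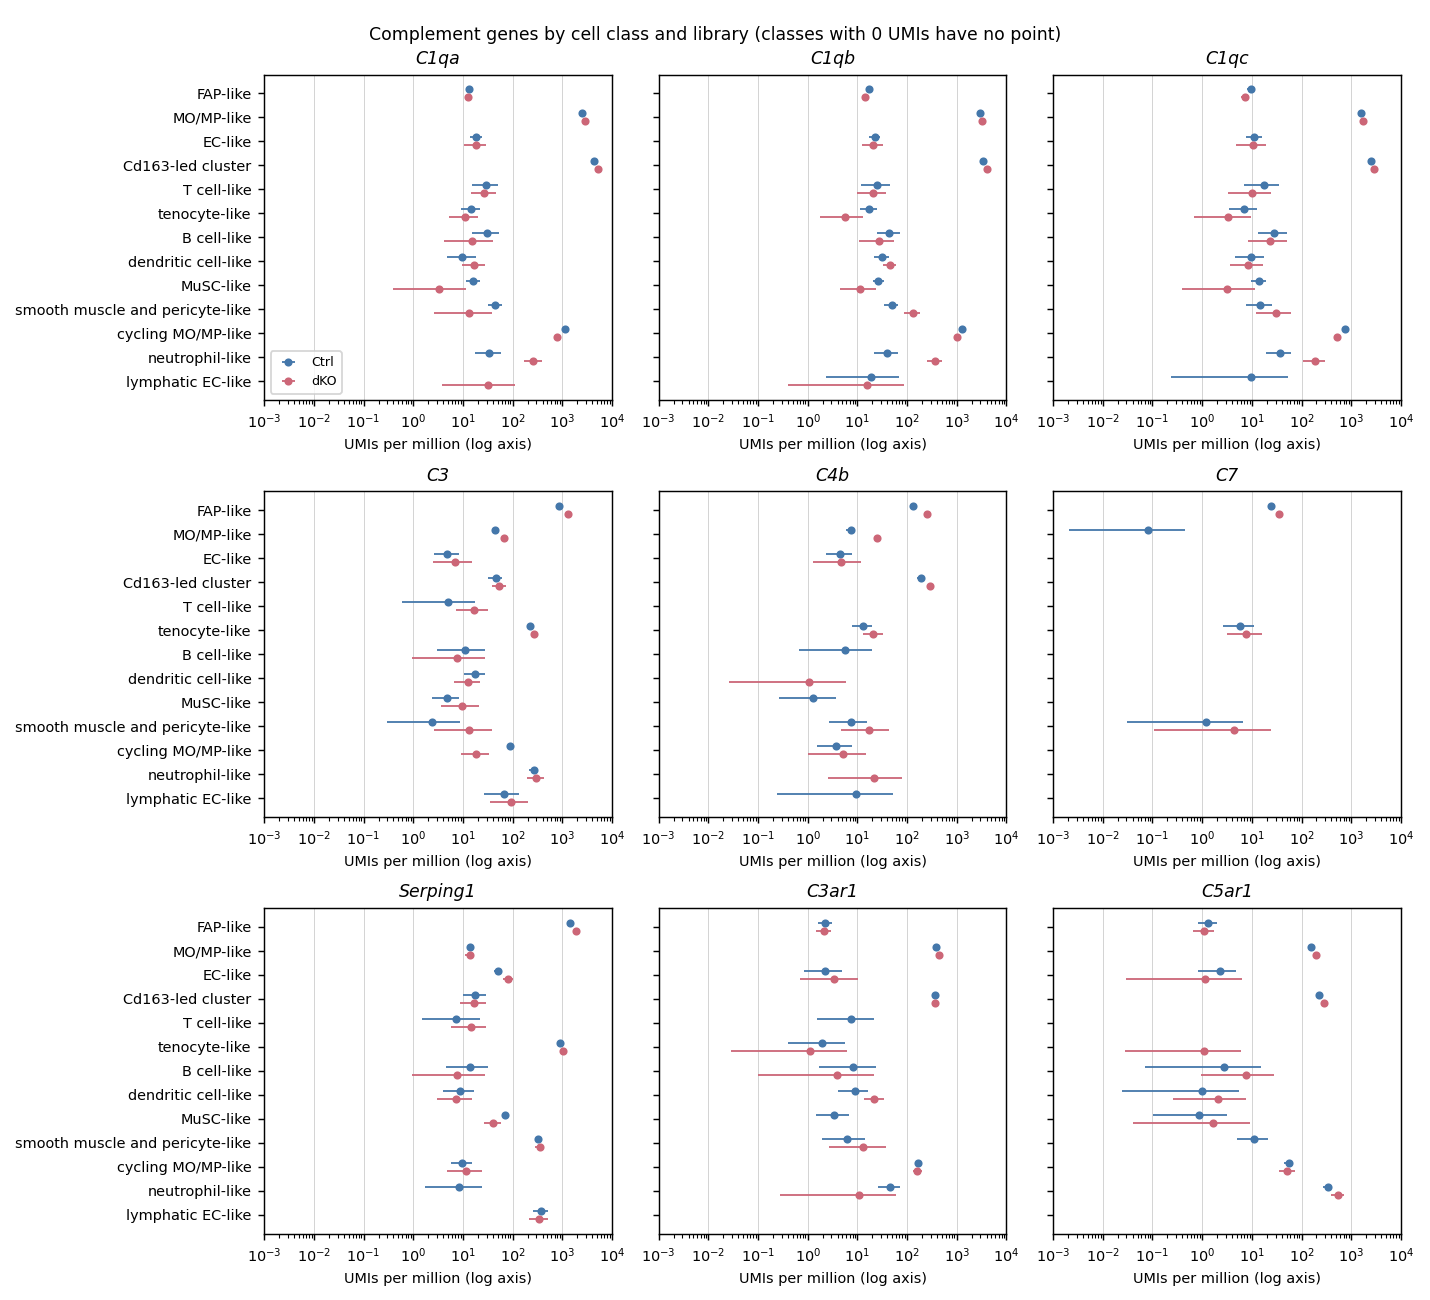
Level of each complement gene (CPM, log axis) in 13 cell classes, with Ctrl in blue and dKO in red; bars are exact 95% Poisson intervals and classes with 0 UMIs have no point. The C1q chains stood between 1597 and 5353 CPM in MO/MP-like cells and the Cd163-led cluster, and C3 and Serping1 were highest in FAP-like cells.

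Promoter sequence from RefSeq (GRCm38.p6, 250 bases before to 50 after the start) was at hand for 6 of the 9 members, C1qb, C1qc, C3, C7, C3ar1 and C5ar1. Motifs were searched on both strands as the letters GAAANNGAA (the interferon response core), TTCNNNGAA (the GAS site of STAT proteins), GAGGAAGT (PU.1, a macrophage factor) and AANATGGC (YY1). They occur in 8.56%, 8.30%, 3.20% and 6.05% of 32851 promoters. The PU.1 letters were found in C1qc, and the GAS letters in C7, where the pattern matches on both strands. The interferon core was found in C5ar1, on the opposite strand, and in C7. In C5ar1 it lies before the RefSeq start but past a start annotated farther upstream. In C7 it lies after the RefSeq start but before a start annotated farther downstream. The YY1 letters were in none of the 6. The 4 sequences below are shown because C1qb and C1qc varied together over macrophages while C3 and C7, both of FAP-like cells, ordered the FAP sub-clusters differently. Each stops before the annotated start and runs 5′ to 3′ on the minus strand, with a motif in capitals.
C1qb, chr4:136886201-136886450: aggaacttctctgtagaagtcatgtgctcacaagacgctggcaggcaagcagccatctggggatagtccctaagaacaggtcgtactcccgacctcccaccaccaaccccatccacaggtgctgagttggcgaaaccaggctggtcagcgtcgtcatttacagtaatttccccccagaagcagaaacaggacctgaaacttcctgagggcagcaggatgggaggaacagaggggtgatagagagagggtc
C1qc, chr4:136893066-136893164: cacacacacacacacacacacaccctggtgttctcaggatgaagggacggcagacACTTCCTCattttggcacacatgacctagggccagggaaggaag
C3, chr17:57228137-57228386: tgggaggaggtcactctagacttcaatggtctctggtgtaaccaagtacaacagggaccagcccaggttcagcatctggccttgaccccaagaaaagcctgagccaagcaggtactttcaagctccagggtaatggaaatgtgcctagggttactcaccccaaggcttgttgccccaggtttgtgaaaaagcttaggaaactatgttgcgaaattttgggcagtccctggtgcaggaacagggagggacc
C7, chr15:5063774-5064023: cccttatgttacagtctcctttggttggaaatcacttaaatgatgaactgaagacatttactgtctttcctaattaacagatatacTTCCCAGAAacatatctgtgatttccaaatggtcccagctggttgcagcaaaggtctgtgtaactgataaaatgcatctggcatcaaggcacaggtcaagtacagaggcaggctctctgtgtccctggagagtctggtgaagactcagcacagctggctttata
In the C1qc window the PU.1 letters stand on the opposite strand, at chr4:136893102-136893109. The 99 bases printed for C1qc end at a start annotated upstream of the RefSeq one. A match is a description of the letters, not a binding site, and no match says only that these letters are not in the window.

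The C1q chains, which recognise the target, were macrophage genes. C1qa (mm10, chr4:136895917-136898803, minus strand), C1qc (chr4:136889804-136893065) and C1qb (chr4:136880129-136886187) are protein coding neighbours on chromosome 4. In MO/MP-like cells C1qa stood at 2551 CPM in Ctrl and 2884 CPM in dKO, C1qb at 2955 and 3245 CPM, and C1qc at 1597 and 1717 CPM. Each chain was higher in the dKO library, by 1.13-fold for C1qa (interval 1.11 to 1.15), 1.098-fold for C1qb (1.08 to 1.12) and 1.08-fold for C1qc (1.05 to 1.099). These differences are larger than counting error but small beside the 1.5-fold limit used below, and the spread between mice is not known. In the Cd163-led cluster C1qa was at 4311 CPM in Ctrl and 5353 CPM in dKO, the highest level of any class in each library. C1qb there was at 3382 and 3999 CPM and C1qc at 2456 and 2902 CPM. Cycling MO/MP-like cells went the other way, with the 3 chains summed at 3147 CPM in Ctrl and 2312 CPM in dKO, a ratio of 0.735 (0.692 to 0.779). That class had 104 Ctrl and 36 dKO cells, and 1 dKO cell held 26.7% of its C1q UMIs. The 12 MO/MP markers summed to 9163 CPM in the Ctrl and 4696 CPM in the dKO cycling cells, while 8 neutrophil markers summed to 18139 and 399 CPM. The Ctrl part of this class thus went against its name by its markers and the class held different cells in the 2 libraries. The part of these markers in the difference was not tested. Over all cells, C1q was at 2516 CPM in Ctrl and 2395 CPM in dKO.

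The order of levels was the same for the 3 chains in both libraries: the Cd163-led cluster, then MO/MP-like cells, then cycling MO/MP-like cells, with intervals that did not overlap. Below them came classes in which neighbours could mostly not be told apart. C1q chains summed to 39.7 CPM in Ctrl FAP-like cells (36.7 to 42.9) and to 34.1 CPM in dKO (31.3 to 37.0), to 51.8 and 49.3 CPM in endothelial-like (EC-like) cells and to 102 and 65.7 CPM in B cell-like cells, which should lack C1q. With each cell thinned to 2000 UMIs, C1q was found in 82.4% of Ctrl and 78.5% of dKO MO/MP-like cells, against 7.74% and 6.13% of FAP-like cells and 12.4% and 15.5% of B cell-like cells. Thinning left out 54 Ctrl and 63 dKO MO/MP-like cells, 63 and 54 FAP-like cells, and 45 and 16 B cell-like cells that were shallower. Without thinning the MO/MP-like shares were 88.6% and 83.4%. Median depths were 12153 and 12116 UMIs in FAP-like and 2317.5 and 2556 UMIs in B cell-like cells. The thinned FAP-like share was not above that of B cell-like cells, with overlapping intervals in Ctrl, so no expression is read from it. The C1q UMIs of FAP-like cells were not spread evenly, and 6 dKO cells with over 10 of them held 27.6%.

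The makeup of C1q UMIs by chain in FAP-like and EC-like cells did not differ from that of MO/MP-like cells beyond counting error. C1qa made up 35.9% of C1q UMIs in Ctrl MO/MP-like cells, 33.1% in FAP-like cells and 35.5% in EC-like cells, and C1qb made up 41.6%, 42.9% and 42.8%. In FAP-like cells all 12 MO/MP markers were detected, summing to 367 CPM in Ctrl and 396 CPM in dKO, while in MO/MP-like cells they summed to 24381 and 24157 CPM. Without Apoe, 1 of the 12, the FAP-like sums were 185 CPM in Ctrl and 143 CPM in dKO, so the direction depended on this marker. The part of these markers in the C1q of FAP-like cells was not tested. The Cd163-led cluster had its own makeup, with 42.5% C1qa and 33.3% C1qb in Ctrl and 43.7% and 32.6% in dKO. The largest C1q ratio between the libraries was in neutrophil-like cells, at 109.5 CPM in Ctrl and 810 CPM in dKO, but 2 of the 36 dKO cells held 98.7% of its 75 UMIs. In MuSC-like cells summed C1q was at 56.3 CPM in Ctrl (130 UMIs) and 17.8 CPM in dKO (11 UMIs). The ratio was 0.316 (0.154 to 0.584), but 2 of the 117 Ctrl cells held 56.9% of the Ctrl UMIs. The 12 MO/MP markers in MuSC-like cells summed to 422 CPM in Ctrl and 97.0 CPM in dKO. In smooth muscle and pericyte-like cells C1q was at 108 and 173 CPM, a ratio of 1.60 (1.07 to 2.34), but 1 dKO cell held 87.5% of the 40 dKO UMIs. The part of these markers and cells in the differences was not tested.

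C1q varied widely among MO/MP cells themselves. As UMIs in every 10000 UMIs of a cell, C1q had a median of 55.2 over MO/MP-like cells in Ctrl (quartiles 10.9 and 107) and 57.3 in dKO (4.91 and 122). Over Cd163-led cells the median was 79.2 in Ctrl (44.3 and 118) and 104 in dKO (67.3 and 142), and over cycling cells 2.39 and 0.470. Across cells thinned to 2000 UMIs, the chains went together, with Spearman correlations of 0.76 to 0.78 among 1275 Ctrl cells and 0.79 to 0.83 among 1015 dKO cells. These cells share a library, and the correlations are given as a description.

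MO/MP-like cells and the Cd163-led cluster were then sub-clustered together, again without complement genes, into 7 groups called by their 2 leading genes. The Calhm6 and Ifit3 group, which also had the interferon-induced genes Cxcl10 and Ifit2 among its leading genes, and the Lyve1 and Cd163 group were the C1q-rich ones. Summed C1q was at 12185 CPM in Ctrl and 13937 CPM in dKO in the Calhm6 and Ifit3 group, and at 11599 and 13708 CPM in the Lyve1 and Cd163 group. The Arl5c and Fbxo32 group followed at 8631 and 10208 CPM, and the Spp1 and Rnf128 group at 5413 and 5642 CPM. Spp1 encodes osteopontin. The Vcan and Slpi group, which also carried Chil3 and Plac8, was at 1909.9 CPM in Ctrl (3586 UMIs) and 1762 CPM in dKO (2505 UMIs). The dKO value was the higher of the pair in 5 of the 7 groups, with ratios of 1.04 to 1.23, and the lower in the Vcan and Slpi group (0.923) and in the S1pr5 and Gjb2 group, which had 15 Ctrl and 5 dKO cells.

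**Figure D2:**
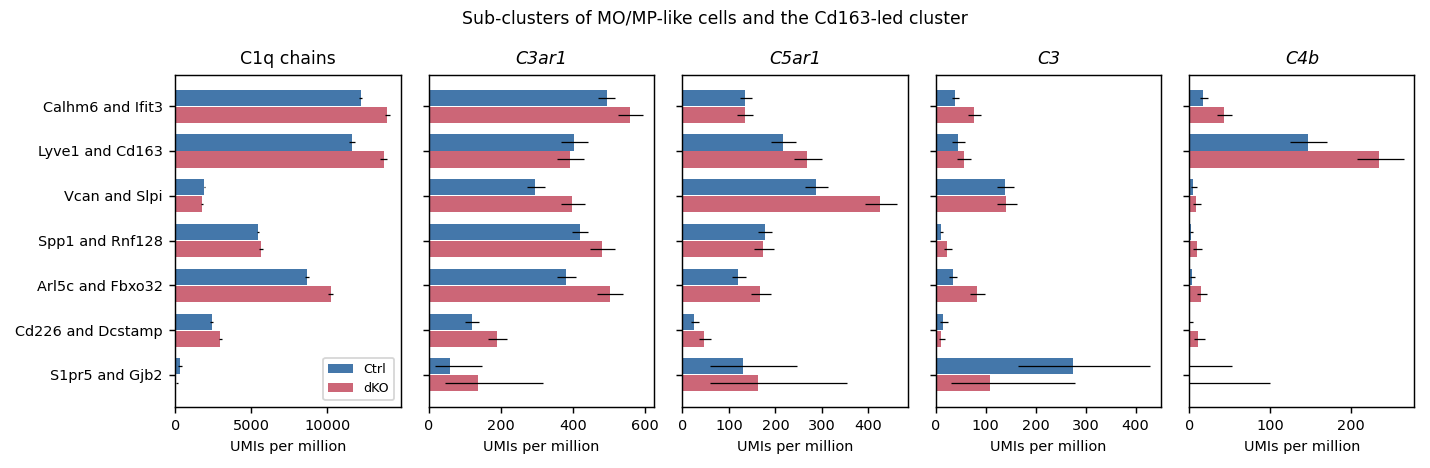
Levels (CPM) of summed C1q, C3ar1, C5ar1, C3 and C4b in 7 sub-clusters of MO/MP-like cells and the Cd163-led cluster, with Ctrl in blue and dKO in red and exact 95% Poisson intervals. C1q was highest in the Calhm6 and Ifit3 and the Lyve1 and Cd163 groups, C5ar1 in the Vcan and Slpi group, and C4b in the Lyve1 and Cd163 group.

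The receptors were macrophage genes too, with a different order. C3ar1 (chr6:122847138-122856161) was at 382 CPM in Ctrl and 440.5 CPM in dKO MO/MP-like cells, a ratio of 1.15 (1.104 to 1.21), and at 358 and 369.6 CPM in the Cd163-led cluster. Those 2 classes could not be told apart in Ctrl. C3ar1 was at 2.26 and 2.11 CPM in FAP-like cells. C5ar1 (chr7:16246743-16259540) was highest in neutrophil-like cells, at 334 CPM in Ctrl (119 UMIs) and 539.9 CPM in dKO (50 UMIs), then in the Cd163-led cluster at 224 and 283 CPM, and in MO/MP-like cells at 157 and 194 CPM. The MO/MP-like ratio of C5ar1 was 1.23 (1.15 to 1.32). C5ar1 was at 1.32 and 1.08 CPM in FAP-like cells.

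Among the sub-clusters C5ar1 had another order than C1q. It was highest in the Vcan and Slpi group, at 287 CPM in Ctrl and 426 CPM in dKO, a ratio of 1.48 (1.32 to 1.67), and lower in the Calhm6 and Ifit3 group at 136 and 135 CPM. C3ar1 was highest in the Calhm6 and Ifit3 group at 493 and 559 CPM and was at 296 and 397 CPM in the Vcan and Slpi group. Both receptors were lowest, among groups with over 20 cells, in the Cd226 and Dcstamp group, where C3ar1 was at 119 and 189 CPM and C5ar1 at 25.8 and 47.1 CPM.

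C3, the protein on which all routes of activation meet, was mostly found in FAP-like cells. C3 (chr17:57203970-57228136) stood at 870.3 CPM in Ctrl FAP-like cells (856 to 885) and at 1318 CPM in dKO (1301 to 1336), a ratio of 1.51 (1.48 to 1.55). With cells thinned to 2000 UMIs FAP-like cells with a C3 UMI were 51.7% in Ctrl and 67.0% in dKO, against 2.06% and 0 of 71 B cell-like cells. Without thinning the FAP-like shares were 74.9% and 84.1%. Neutrophil-like cells followed at 267 and 292 CPM and tenocyte-like cells at 228 and 267 CPM, and their intervals overlapped. In MO/MP-like cells C3 was at 44.1 CPM in Ctrl and 68.6 CPM in dKO, a ratio of 1.55 (1.38 to 1.75). Among groups of over 20 cells it was highest in the Vcan and Slpi group, at 138.5 and 141 CPM (ratio 1.02, 0.845 to 1.23), while the Arl5c and Fbxo32 group went from 33.7 CPM in Ctrl to 81.9 CPM in dKO.

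C4b encodes C4, the C1s substrate. C4b (chr17:34728380-34743882) had the largest FAP-like ratio of the 9 genes. It was at 129.6 CPM in Ctrl FAP-like cells (124 to 135) and at 249 CPM in dKO (242 to 257), a ratio of 1.92 (1.83 to 2.03). Thinned to 2000 UMIs, a C4b UMI was found in 16.6% of FAP-like cells in Ctrl and in 30.8% in dKO. In B cell-like cells these shares were 2.06% and 0 of 71 cells. The Cd163-led cluster was at 186 CPM in Ctrl (159 UMIs) and 290.3 CPM in dKO (205 UMIs), above FAP-like cells in Ctrl and not told apart from them in dKO. MO/MP-like cells were at 7.44 CPM (91 UMIs) and 24.7 CPM (195 UMIs), a ratio of 3.32 (2.58 to 4.31). C4a, a close copy of C4b, had 13 Ctrl and 8 dKO UMIs in all cells against 2383 and 4577 for C4b, and how reads shared by the 2 genes were counted is not given in the sources used here.

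The C3 and C4b of macrophages did not keep the ratio they had in FAP-like cells. Per 100 Serping1 UMIs, FAP-like cells had 60.6 C3 UMIs in Ctrl and 70.5 in dKO, and MO/MP-like cells had 316 and 501. C4b UMIs on this scale were 9.02 and 13.3 for FAP-like cells, 53.2 and 181 for MO/MP-like cells, and 1060.0 and 1708 for the Cd163-led cluster. The 12 FAP markers were all detected in MO/MP-like cells and summed to 535 CPM in Ctrl and 385 CPM in dKO. The Serping1 UMIs behind these values were 171 and 108 in MO/MP-like cells, and 15 and 12 in the Cd163-led cluster. The Ctrl level in MO/MP-like cells was close to that of Ctrl B cell-like cells. The part of RNA from FAPs in the C3 and C4b of MO/MP-like cells was not tested.

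C7 (chr15:4988762-5063740) had the highest share of UMIs in 1 class of the 9. FAP-like cells held 382 of its 393 Ctrl UMIs and 596 of its 604 dKO UMIs, at 23.9 CPM (21.6 to 26.5) and 35.9 CPM (33.1 to 38.9). The ratio was 1.499 (1.32 to 1.71), so close to the limit of 1.5 that its side depends on the processing. On the log2 scale it ran from 0.47 to 0.64 over 8 alternatives and was under the limit only as a mean of each cell's own CPM. Tenocyte-like cells had 9 and 7 UMIs. MO/MP-like cells had 1 and 0 UMIs, and the 0 allows up to 0.380 CPM by a limit of 3 counts. Smooth muscle and pericyte-like cells had 1 and 1, and the other classes had 0.

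Serping1 (chr2:84765387-84775444) was the broadest stromal gene. It was at 1436 CPM in Ctrl FAP-like cells and 1870.3 CPM in dKO, a ratio of 1.30 (1.28 to 1.32), and at 903 and 1055 CPM in tenocyte-like cells, a ratio of 1.17 (1.08 to 1.27). Lymphatic EC-like cells were at 370.0 and 344 CPM and smooth muscle and pericyte-like cells at 326 and 349.9 CPM. EC-like cells were at 50.6 CPM in Ctrl (135 UMIs) and 80.3 CPM in dKO (70 UMIs), a ratio of 1.59 (1.17 to 2.13). Without the top cell of each library they were at 48.2 and 70.6 CPM, under 1.5-fold apart. In MuSC-like cells Serping1 went the other way, from 71.0 CPM in Ctrl (164 UMIs) to 40.4 CPM in dKO (25 UMIs), a ratio of 0.569 (0.358 to 0.870), and 1 dKO cell held 28.0% of the dKO UMIs. The 12 FAP markers in MuSC-like cells summed to 939.7 CPM in Ctrl and 473 CPM in dKO, and their part in this difference was not tested. MO/MP-like cells were at 14.0 and 13.7 CPM, against 13.8 CPM (5 UMIs) in Ctrl and 7.74 CPM (2 UMIs) in dKO B cell-like cells.

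The plot of dKO to Ctrl ratios shows the members with at least 100 UMIs in a class. In FAP-like cells 7 of the 9 passed that filter, which counts both libraries together, and 2 were past 1.5-fold, both higher in dKO (C3 and C4b). C3 was under the limit as a mean of each cell's own CPM, and C7 was past it in the other alternatives, while C4b was past it in all of them. Of all 10446 genes that passed it in FAP-like cells, 2.74% were higher by 1.5-fold or more and 2.77% lower. In MO/MP-like cells 8 of 9 passed the filter and the 2 past the limit were again C3 and C4b, both higher, where 4.48% of 8508 genes were higher and 2.68% lower. In EC-like cells only Serping1 passed the filter and it was higher, a call that ended without the top cell of each library (log2 ratio 0.55), where 4.6% of 4734 genes were higher and 7.33% lower. No member was lower by 1.5-fold in these 3 classes. For the members that passed the filter the median log2 ratio was 0.38 (FAP-like) and 0.19 (MO/MP-like), against -0.06 and 0.00 over all genes. The FAP-like median includes C1qa, C1qb and C1qc (-0.05, -0.26 and -0.41), from which no expression was read there. The MO/MP-like median includes Serping1 (-0.03), which was near its level in Ctrl B cell-like cells. The 2 libraries differ in pooled mice, handling and genotype together, which cannot be told apart.

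**Figure D3:**
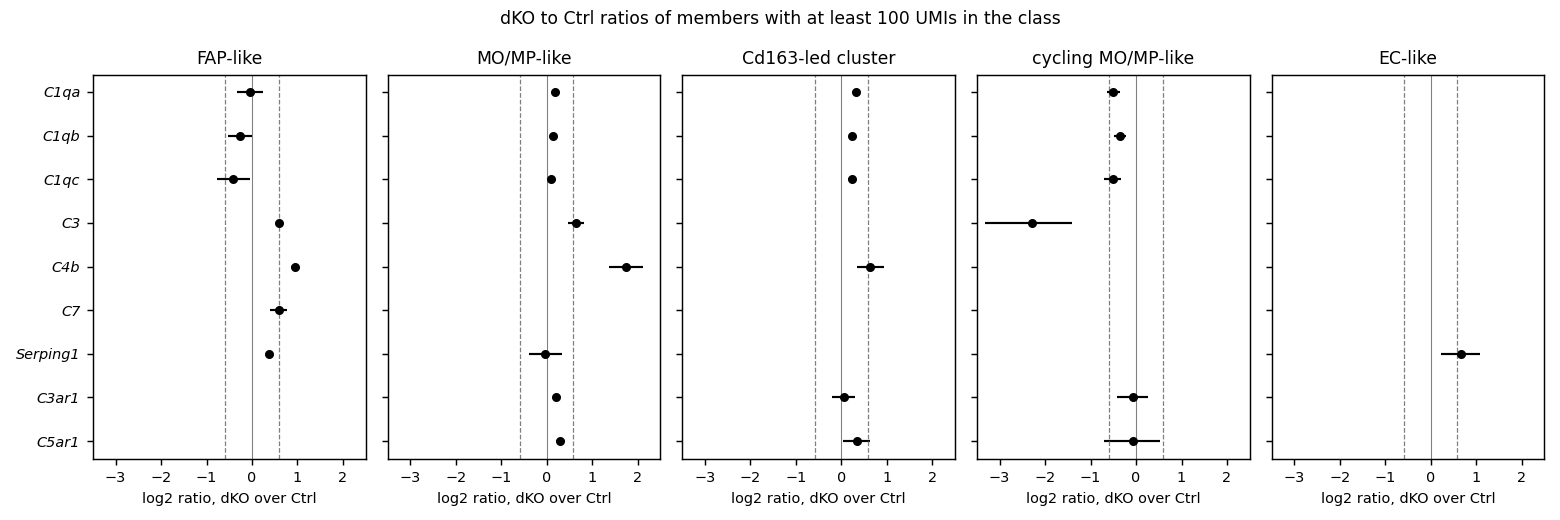
log2 ratio of dKO over Ctrl for complement genes with at least 100 UMIs over both libraries in 5 cell classes; points are ratios of CPM, bars are exact 95% conditional binomial intervals and dashed lines mark 1.5-fold. In FAP-like cells C3, C4b, C7 and Serping1 lay above 0. In MO/MP-like cells every member shown but Serping1 lay above 0, with C3 and C4b past 1.5-fold. C3 lay far below 0 in cycling MO/MP-like cells.

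FAP-like cells fell into 6 sub-clusters, in which the stromal genes differed widely. The Dmkn and Car8 group, which also had Dpp4, Sbsn and Smpd3 among its leading genes, was the richest in C3, at 3529.5 CPM in Ctrl and 3989 CPM in dKO, and in C4b, at 729 and 961 CPM. Serping1 was highest there too, at 2718 and 3057 CPM. The cycling Top2a and Ccna2 group was the poorest by CPM, with C3 at 436 and 434 CPM, C4b at 37.0 and 66.3 CPM and Serping1 at 596 and 709 CPM. Its cells were the deepest, with a median of 24087.5 UMIs, so this is not an order of UMIs per cell. Its 133 Ctrl cells held 1425 C3 UMIs, against 3414 in the 370 Ctrl cells of the G0s2 and Cdkn1c group. C7 had another order: it was highest in the Fmo2 and Gdf10 group, at 154 CPM in Ctrl (47 UMIs) and 171 CPM in dKO (52 UMIs), and lowest in the Top2a and Ccna2 group at 7.03 and 8.85 CPM. The Fmo2 and Gdf10 group had a median of 2253 UMIs per cell, against 10218 to 24087.5 in the other 5.

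The dKO to Ctrl ratios differed between FAP sub-clusters. For C3 they were 2.23 (interval 2.12 to 2.34) in the Rgcc and Plk2 group (557 CPM in Ctrl, 1239 CPM in dKO) and 1.89 in the G0s2 and Cdkn1c group (707 and 1338 CPM). They were 1.36 in the Zfp36 and Dnaja4 group, 1.13 in the Dmkn and Car8 group, 1.06 in the Fmo2 and Gdf10 group and 0.997 (0.930 to 1.07) in the Top2a and Ccna2 group. The groups with the highest and the lowest C3 in Ctrl were thus not the ones with the larger ratios. C4b was higher in dKO in all 6 groups, from 1.16-fold in the Fmo2 and Gdf10 group (0.804 to 1.69) to 3.36-fold in the G0s2 and Cdkn1c group (2.98 to 3.79), where it went from 78.5 CPM to 263 CPM. C7 in the G0s2 and Cdkn1c group went from 22.8 CPM (110 UMIs) to 52.2 CPM (191 UMIs), and Serping1 from 1671 to 2425 CPM. Over the 6 groups C7 ratios ran from 1.11 in the Fmo2 and Gdf10 group to 2.29 in the G0s2 and Cdkn1c group. Serping1 ratios ran from 0.904 (0.803 to 1.02) in the Fmo2 and Gdf10 group to 1.60 in the Rgcc and Plk2 group. Of all FAP-like cells, the G0s2 and Cdkn1c group was 33.0% in Ctrl and 24.6% in dKO, and the Rgcc and Plk2 group 19.7% and 24.6%. Across FAP-like cells thinned to 2000 UMIs, the Spearman correlation of C3 with C4b was 0.39 in 1059 Ctrl and 0.43 in 1125 dKO cells, and that of C3 with Serping1 0.37 and 0.45, as a description.

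**Figure D4:**
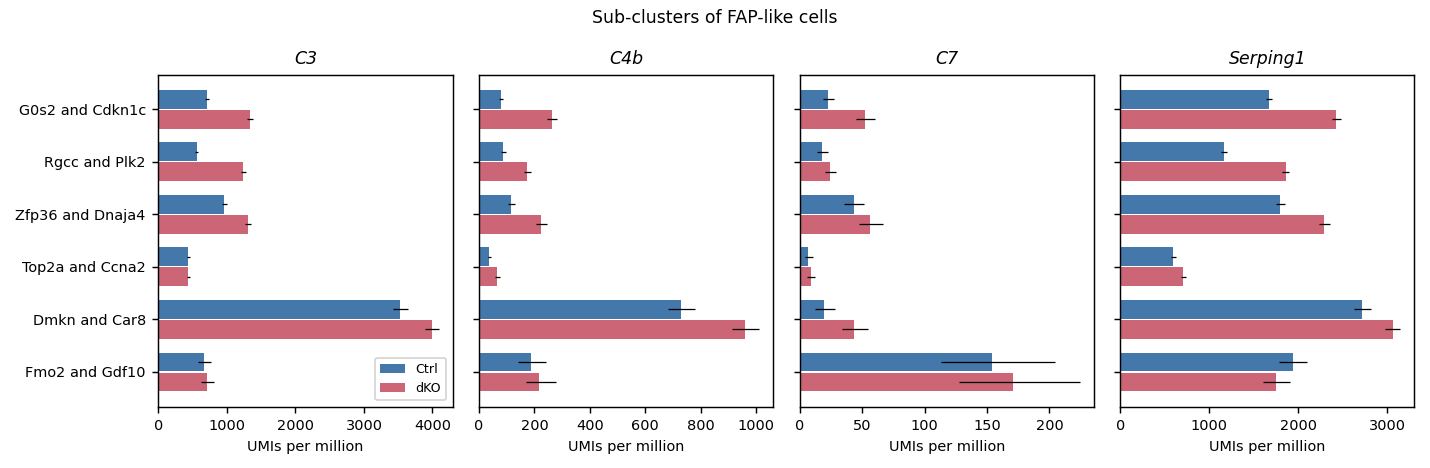
Levels (CPM) of C3, C4b, C7 and Serping1 in 6 sub-clusters of FAP-like cells, with Ctrl in blue and dKO in red and exact 95% Poisson intervals. The Dmkn and Car8 group was highest for C3, C4b and Serping1 and the Fmo2 and Gdf10 group for C7, and C3 in the Rgcc and Plk2 group was at 557 CPM in Ctrl and 1239 CPM in dKO.

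The rest of the pathway was read from a list of 54 complement genes, all of them in the tables. In FAP-like cells 19 of the 54 passed 100 UMIs, of which 4 were higher by 1.5-fold in dKO and 1 lower, beside 2.74% and 2.77% of all genes. Beside C3 and C4b these were C2, the partner of C4 in the C3-cleaving enzyme, at 43.6 CPM in Ctrl and 65.8 CPM in dKO (1.51-fold, 1.37 to 1.66), and Cfb, factor B of the alternative pathway, at 205 and 362 CPM (1.76-fold, 1.69 to 1.84). Both were highest in FAP-like cells in both libraries. The lower one was Cd59a, which blocks the membrane attack complex, at 8.33 and 5.54 CPM (133 and 92 UMIs). It lay just past the limit, so the call is not firm. Without the top cell of each library its log2 ratio was -0.60. With the class median log2 ratio of -0.06 set to 0 it would lie inside the limit. Cd59a was highest in EC-like cells, at 74.7 and 80.3 CPM. C1ra and C1s1, the C1q-bound proteases, were also highest in FAP-like cells, C1ra at 308 and 386 CPM and C1s1 at 410.3 and 432 CPM, the latter followed by smooth muscle and pericyte-like cells at 392 and 402 CPM. The FAP-like median log2 ratio over the 19 genes was 0.08, against -0.06 over all genes.

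In MO/MP-like cells 21 of the 54 passed 100 UMIs, 3 were higher by 1.5-fold (Cfb, C3 and C4b) and 2 lower (Itgax and Clu), beside 4.48% and 2.68% of all genes. Clu passed the 100 UMIs only through 1 cell. Cfb stood at 29.7 CPM in Ctrl (363 UMIs) and 105 CPM in dKO (831 UMIs), a ratio of 3.55 (3.14 to 4.03). Itgax, a subunit of complement receptor 4, was lower at 101 and 57.8 CPM. Its highest values were in dendritic cell-like cells, at 105 and 75.4 CPM, with intervals that overlapped those of MO/MP-like cells. Clu, which encodes clusterin, went from 12.9 CPM (158 UMIs) to 0.634 CPM (5 UMIs), but 1 Ctrl cell held 83.5% of the Ctrl UMIs. Without the top cell of each library 26 and 4 UMIs remained, under the 100 asked for, with a log2 ratio of -2.07. The median log2 ratio over the 21 genes was -0.02, against 0.00 over all genes.

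In EC-like cells 8 of the 54 passed 100 UMIs, 2 were higher by 1.5-fold (Clu and Serping1, the latter not without the top cell of each library) and 0 lower, beside 4.6% and 7.33% of all genes. Clu was at 663 CPM in Ctrl (1766 UMIs) and 1154 CPM in dKO (1006 UMIs), 1.74-fold (1.61 to 1.88), its highest class in both libraries. The median log2 ratio over the 8 genes was 0.43, against -0.03 over all genes. The dKO library held 179 EC-like cells against 464 in Ctrl.

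**Figure D5:**
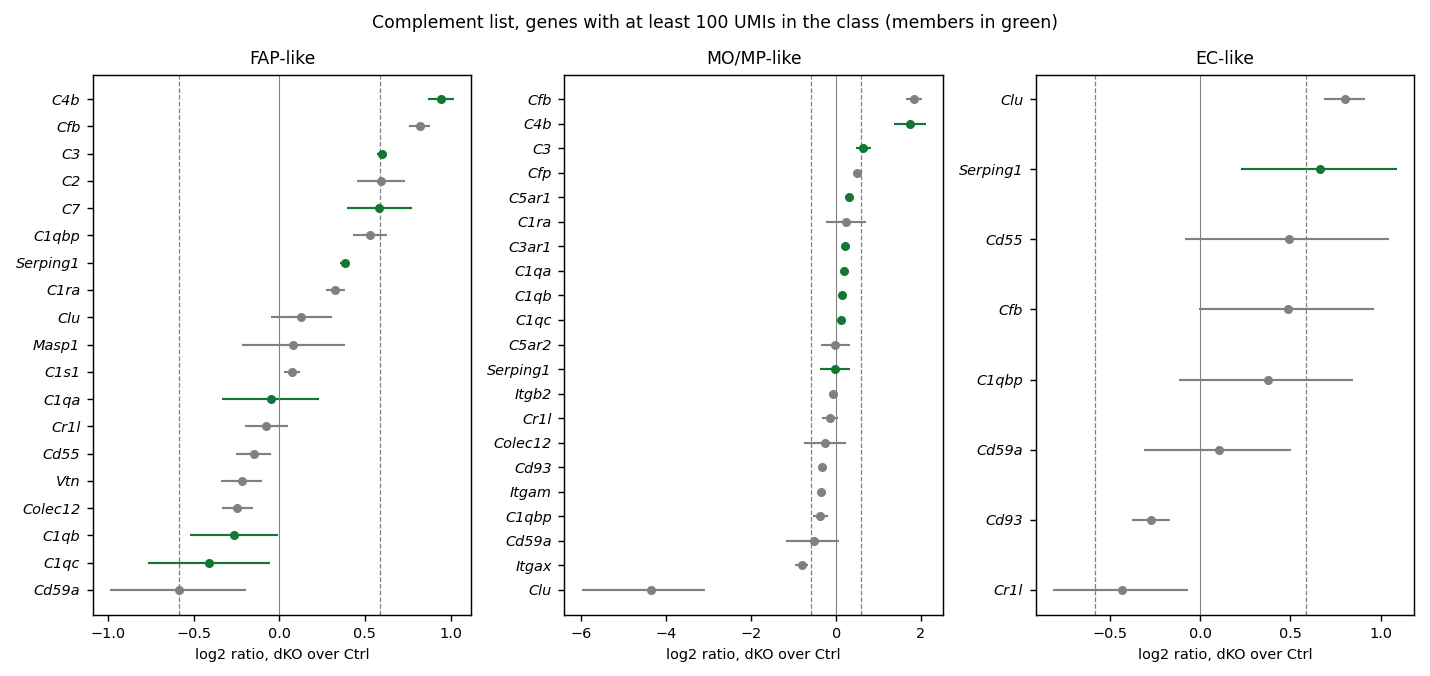
log2 ratio of dKO over Ctrl for genes of the complement list with at least 100 UMIs in FAP-like, MO/MP-like and EC-like cells, with exact 95% conditional intervals, dashed lines at 1.5-fold, and the 9 members in green. C4b, Cfb, C3 and C2 were past 1.5-fold in FAP-like cells and Cfb, C4b and C3 in MO/MP-like cells.

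Of the later components, few were captured. C9 had 2 Ctrl and 5 dKO UMIs, Hc, which encodes C5, had 3 and 6, and C8a had 1 and 0. C8b had 0 in both, which allows up to 0.0735 CPM in Ctrl and 0.0987 CPM in dKO over all cells. Cfd, factor D, had 3 and 1 UMIs. C6 was highest in the Cd163-led cluster, at 63.3 CPM in Ctrl (54 UMIs) and 63.7 CPM in dKO (45 UMIs), a different place from C7. Cfp, properdin, was highest there too, at 483 and 600.5 CPM, while MO/MP-like cells had 207 CPM in Ctrl and 289.8 CPM in dKO.

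The genes most like each member were sought over 13 classes of both libraries (26 points) among 12525 genes outside the list, by Pearson correlation of log2(CPM + 1). For C1qa they were Ms4a7 (0.939), Ccl12 (0.938) and Siglec1 (0.935), for C1qb Ms4a7 (0.969), Siglec1 (0.95) and Pf4 (0.939), and for C1qc Pf4 (0.964), Ms4a7 (0.963) and Siglec1 (0.931). C3ar1 was most like Ms4a7 (0.959), Arhgap19 (0.937) and Atp6v1c1 (0.925), and C5ar1 like Clec5a (0.932), Fcgr3 (0.919) and Slc11a1 (0.917). Serping1 was most like Fstl1 (0.97), Calu (0.955) and Fbn1 (0.953), and C7 like Amy1 (0.974), Podn (0.96) and Duox1 (0.939). C3 had less close partners in Chst12 (0.849), Rhou (0.827) and Ctsk (0.763), as had C4b in G530011O06Rik (0.825), Ccl2 (0.817) and Ccl7 (0.811). The points share libraries, and the values are a description.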

How the data were processed

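Single cell RNA-seq of 2 libraries, 1 Ctrl and 1 dKO, was analysed. The authors prepared 10x Chromium libraries and deposited UMI counts per gene and barcode. Per the submitters' processing notes they used Cell Ranger 7.0.0, Seurat 4.3.0 and mm10, while the file headers name another software version. The deposited counts were not normalized, and 0 mitochondrial genes were listed. The tables held 4527 Ctrl cells (45556596 UMIs) and 3483 dKO cells (33815155 UMIs), with 7 barcodes in both. The study's 500-gene filter left 4335 and 3329 cells before doublet removal, the numbers that its text gives for after it. Doublets were the 7.5% of cells with the highest Scrublet scores (scanpy 1.11.5), 325 and 250 cells, since Scrublet's own limit called 4 and 14. Cells were integrated and clustered in Seurat 5.3.0 (2000 variable genes less 55 complement genes, 40 dimensions, resolution 0.8, sub-clusters at 0.4). A cluster took the class with at least 3 markers enriched 2-fold. Setting the Cd163-led cluster apart and the limit for cycling clusters were settled after the clusters had been seen.

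UMIs were summed per class and library, given as CPM of class totals with exact 95% intervals (scipy 1.17.1), and called past the limit at 1.5-fold with at least 100 UMIs over both libraries. With 1 library per group there was no test. The members and gene lists were chosen with earlier results of these data known. Named genes were all members, list genes past 1.5-fold with the class highest for each, the 3 genes most like each member, and 2 leading genes per sub-cluster (in at least 20% of cells, at 50 CPM or more). C6, Cfp, C1ra, C1s1 and list genes with few UMIs were named after their values were seen. Of the 55 complement genes kept out of the clustering, 1 is not reported here. The functions were tested on simulated data. Gene positions were looked up by symbol in GENCODE M21 on GRCm38.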

Additional observations from a re-analysis of the deposited data

Results flagged for a closer look

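C3, Clu, C1qbp and the C1q chains, each of them and summed, had dKO to Ctrl ratios on opposite sides of 1 in 2 classes with counting intervals clear of 1 in both. Only classes with at least 100 UMIs of the gene and 1% of its UMIs in a library were compared, and genes other than the members in FAP-like, MO/MP-like and EC-like cells alone. The differences were not tested since each group had 1 library. C3 had log2 ratios of 0.64 in MO/MP-like and -2.29 in cycling MO/MP-like cells, a difference of 2.93. The cycling value rests on 167 Ctrl and 11 dKO UMIs, and 6 of the 11 were in 1 cell. The cycling class had 8 neutrophil markers summing to 18139 CPM in Ctrl and 399 CPM in dKO, against 9163 and 4696 CPM for the 12 MO/MP markers, so it did not hold the same cells in both libraries and its name goes against its markers in Ctrl. Neutrophil-like cells of Ctrl had C3 at 267 CPM, and their part in the difference was not tested. Summed C1q had 0.27 in the Cd163-led cluster and -0.44 in cycling MO/MP-like cells, a difference of 0.72. Serping1, at 0.38 in FAP-like and -0.81 in MuSC-like cells, also lay on opposite sides with intervals clear of 1, but MuSC-like cells held under 1% of its UMIs. The 12 FAP markers there summed to 939.7 CPM in Ctrl and 473 CPM in dKO, and their part was not tested. Clu had 0.80 in EC-like and -4.35 in MO/MP-like cells, a difference of 5.15, but 1 Ctrl cell held 83.5% of the Ctrl MO/MP-like UMIs. Without the top cell of each library 26 and 4 UMIs remained, under the 100 asked for, and the second value was -2.07. C1qbp, which encodes a mitochondrial protein that binds C1q, had 0.53 in FAP-like and -0.37 in MO/MP-like cells, a difference of 0.90.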

How the results depend on the processing

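No paired analysis was possible because each group had 1 library. No direction reversed under the alternatives run. The log2 ratio of C1q in MO/MP-like cells (0.14) was 0.17 with doublets kept, 0.13 with cells of 200 genes and 1000 UMIs, 0.18 without integration and 0.17 with the Cd163-led cluster counted in, an alternative chosen after seeing the data. C3 in FAP-like cells (0.60) was 0.63 at resolution 1.2, 0.55 as a mean of each cell's own CPM, which is under the 1.5-fold limit, and 0.65 with median scaling. C7 (0.58, just under the limit) was past it in every alternative but the mean of each cell's own CPM (0.47), at most 0.64. C4b (0.94) was 0.85 as a mean of each cell's own CPM. Serping1 (0.38) was 0.41 with the 200-gene filter, 0.41 at resolution 1.2, 0.32 by each cell's own CPM and 0.44 with median scaling. The share of C1q UMIs in MO/MP-like cells of Ctrl (84.7%) was 88.6% with doublets, 85.2% with the 200-gene filter, 90.8% without integration, 85.1% at resolution 1.2, 93.1% with the Cd163-led cluster and 76.2% by own CPM. The share of C3 in FAP-like cells (91.5%) was 90.0%, 90.1% and 88.5% with doublets, the 200-gene filter and own CPM. The cause was not tested. Genes past 1.5-fold numbered 575 (573 to 846) in FAP-like and 609 (610 to 898) in MO/MP-like cells, the highest with lower UMI minimums, which let more genes in.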
